A study of Camelus dromedarius with 10 samples.

Results

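The receptors for cytokines and for ligands of the tumour necrosis factor (TNF) family are surface proteins through which immune and glial signals reach a cell, and the growth hormone and prolactin receptors belong to the same class I cytokine receptor fold. A list of 54 such receptor genes was looked up by name among the 22444 Ensembl gene IDs counted in the supraoptic nucleus (SON) of the dromedary camel. An ID was found for 52 of them, by the camel gene name for 45 and by the name of the human ortholog for 7. No ID could be matched to TNFRSF12A or TNFRSF14, which are not analysed here. Of the 52, 40 had enough read pairs for a test, out of 14432 genes tested in all.

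The SON is the hypothalamic nucleus whose magnocellular neurones make vasopressin and oxytocin. Its rostral part was dissected on 1 side from male dromedary camels aged 4 to 5 years, which all received hay and were kept outdoors on a ranch. The 5 control (CON) camels drank freely, and the 5 water-deprived (WD) camels had food but no water for 20 days. RNA was depleted of ribosomal RNA and sequenced as stranded libraries, which are named here by group and animal number (CON2, CON3, CON4, CON5 and CON13, and WD6, WD7, WD8, WD9 and WD15). Values of single libraries are always given in this order. The question is which of these receptors the camel SON transcribes, and whether their levels differed after water deprivation.

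As background, cytokine receptors have no kinase of their own and signal mostly through Janus kinases (JAK) bound to their tails, which phosphorylate STAT transcription factors. Receptors of interleukin-1 act through MYD88 and IRAK kinases, and TNF receptors through TRAF adaptors, RIPK1 and nuclear factor kappa B (NF-kB), or through a death domain and caspases. In the brain most of these receptors are known from microglia, astrocytes and vessels, whereas IL6ST, LIFR, CNTFR, GHR and PRLR are also known from neurones.

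Levels are CPM, the read pairs of a gene relative to the size of its library, with sizes corrected by TMM so that libraries can be compared. Read pairs counted to genes numbered between 1665098 and 7518432 in control libraries and between 4227685 and 8126641 in WD libraries. Of these counted pairs, 5 gene IDs took between 27.7% and 76.1% in each library. In what remained, 1 read pair was worth 1.20 CPM in CON13 and 0.475 CPM in WD6, against 0.0864 to 0.237 CPM in the other 8 libraries, so receptors with few counts are least precise in these libraries. A count of 0 allows up to 3.59 CPM in CON13, 1.42 CPM in WD6 and 0.710 CPM elsewhere (3 counts, counting error only). The fragments of CON13 and WD15 were shorter than those of the other libraries. In such bulk samples, fewer cells of a type and less RNA per cell cannot be told apart.

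Markers of magnocellular neurones were present in every library, which alone does not set the SON apart from nearby hypothalamus. PDYN, SIM1, OTP, ARNT2, SCG2, PCSK1 and CALCR, known from magnocellular neurones or their precursors, had read pairs in all 10 libraries, and their summed level was 836 to 1143 CPM in control libraries and 1751 to 2757 CPM in WD libraries. No ID could be matched to AVP or OXT, so neither is analysed here. The 19 microglial and macrophage markers summed to 613 to 961 CPM in control libraries and 877 to 2962 CPM in WD libraries, with the highest sum in WD15, and the 14 markers of lymphocytes and granulocytes to 23.6 to 122 CPM in control libraries and 18.5 to 69.3 CPM in WD libraries, with the highest sum in CON13.

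No receptor passed the threshold. The test was edgeR's quasi-likelihood F test over all 14432 genes, and a gene was called at an adjusted p of at most 0.05 (Benjamini-Hochberg). The range beside a log2 fold change holds its lowest and highest value over the 10 fits that each left out 1 library. None of the 40 receptors tested was called, whereas 72 genes in all were (0.499%), and the smallest adjusted p of a receptor was 0.204, for IL1RAP. An unadjusted p under 0.05 was found for 8 of the 40 receptors, against 9.31% of all genes. IFNGR1, TNFRSF1B and LIFR had the higher mean in WD, and TNFRSF21, IL1RAP, CSF3R, PRLR and IL2RB had the lower. The study's own tool, DESeq2, called 1 receptor, TNFRSF9, which has too few counts for the edgeR test and is described with the rare receptors.

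The source of a symbol matters for reading these shares. Of the 52 receptors, 51 are named in the study's lists of genes by class, which were not chosen by p, and IL1RAP is named only in a copy of the study's results table that holds the genes of lowest p. Among the genes tested that are listed only there, 84.5% had an unadjusted p under 0.05 in the edgeR test, and among those listed in the class lists 11.3%. Of the 39 receptors tested that are in the class lists, 7 had such a p (17.9%), 3 of them higher and 4 lower in WD.

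In 2 of the 40 receptors tested, TNFRSF21 and IL1RAP, all WD libraries lay below all control libraries, against 1.27% of all genes tested. Of the 39 receptors tested in the class lists this held for TNFRSF21 alone, against 1.76% of the genes tested there. No receptor had all WD libraries above all controls (1.34% of all genes). The median log2 fold change (WD over control) was 0.17 over the 40 receptors and 0.017 over all genes. The receptor median was 0.068 without CON4, 0.08 without WD6, 0.092 without WD15, 0.25 without WD7 and 0.051 with RNA integrity as a covariate. It was 0.29 with depth group as a covariate and 0.28 with library totals only, where that of all genes was 0.16. Over the 19 receptors with at least 10 counts in every library it was 0.37. With all libraries the value was above 0 for 25 receptors and below 0 for 15, whereas 51.9% of all genes were above 0. The plot of fold changes by family shows that single receptors of a family often lay on both sides of 0.

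**Figure D1:**
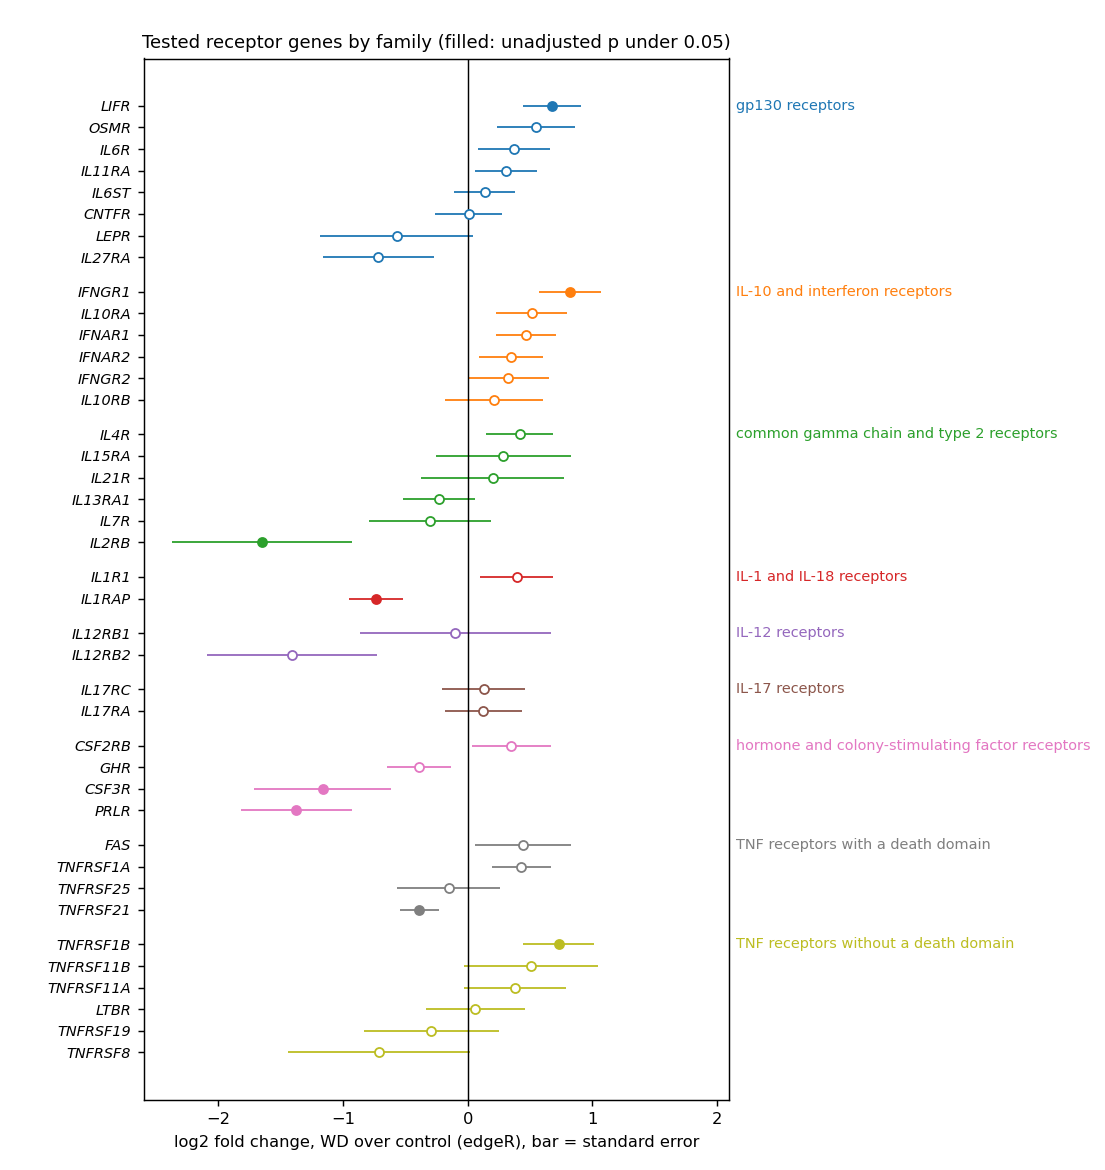
Log2 fold change of WD over control for the 40 receptor genes tested, grouped by family on the vertical axis, with the standard error of the edgeR fit as a bar and filled points at an unadjusted p under 0.05. All 6 receptors of the IL-10 and interferon family lie above 0, between 0.21 and 0.82, and the lowest value is that of IL2RB at -1.65.

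In control camels, IL6ST led the receptors by read pairs, and the 10 highest were IL6ST, TNFRSF21, IL13RA1, IFNAR1, IFNGR1, LIFR, IL1R1, CNTFR, IL4R and GHR. Their control means fell from 108 ± 37.9 CPM for IL6ST (SD, n = 5) to 29.4 ± 10.7 CPM for GHR. This is an order of read pairs and not of transcripts, since gene lengths of the assembly used were not given and a longer transcript yields more pairs. Of the 51 neighbouring pairs in the order of all 52, only that of IL6ST and TNFRSF21 differed by more than the SD of both, and IL6ST was the higher in 4 of 5 control libraries, with CON13 the exception. All other neighbours in this order differed by less than the SD of at least 1 of the pair.

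A mean control level above 10 CPM was reached by 19 receptors and not by 33. The coefficient of variation over the 5 control libraries had a median of 26.3% for the first and 71.0% for the second, and it ran from 12% for IL10RA to 128% for TNFRSF9. CON13 was the highest control library for 24 of the 52 receptors, among them 12 of the 21 tested at up to 10 CPM and 7 of the 12 not tested, but only 5 of the 19 above 10 CPM. Read pairs were present in every library for 41 receptors, and WD6 had the most receptors at 0, with 6.

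**Figure D2:**
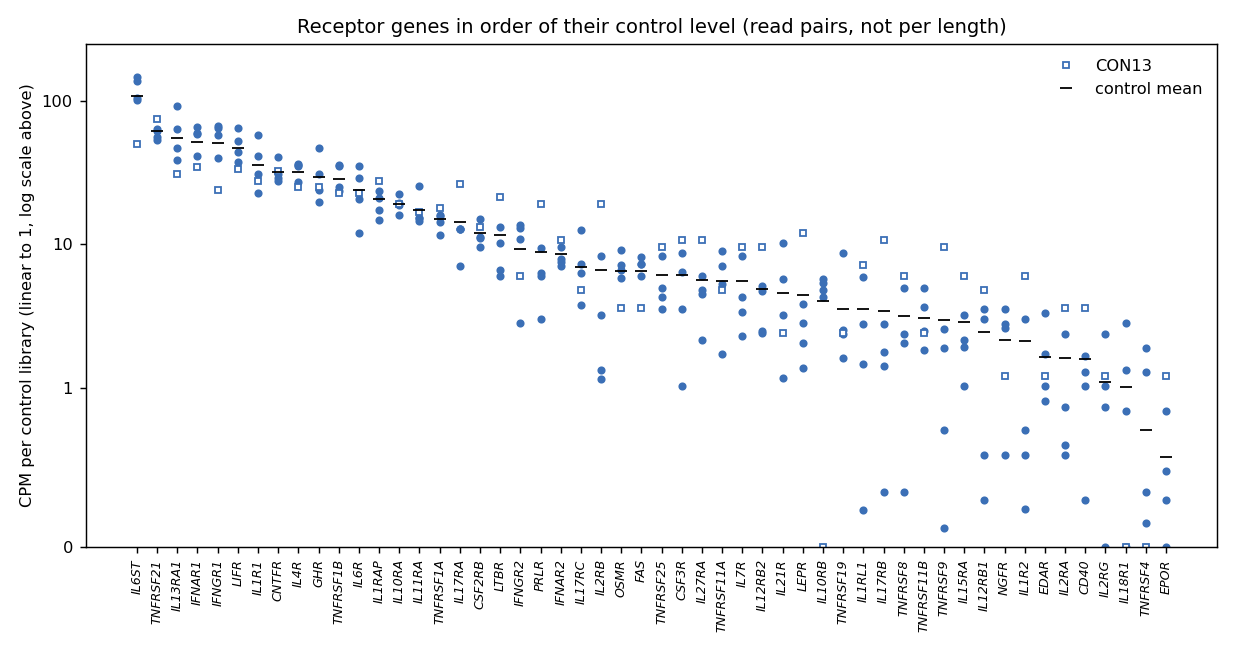
CPM in each of the 5 control libraries (points, CON13 as open squares) and their mean (bars) for the 52 receptor genes, in the order of the mean, on an axis that is linear up to 1 CPM and logarithmic above. Means run from 108 CPM for IL6ST to 0.563 CPM for EPOR, and CON13 lies at the top of many receptors under 10 CPM.

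The gp130 group is built around IL6ST, the signal-transducing chain gp130 that receptors for interleukin-6, LIF, CNTF, oncostatin M, IL-11 and IL-27 share. It held 8 receptors, all tested, with 6 values above 0, that of CNTFR only just, and none was called. The median log2 fold change was 0.22, and 0.15 without CON13 and 0.15 without WD15. IL6ST itself stood at 105, 102, 147, 138 and 50.2 CPM in the control libraries and 68.8, 137, 129, 152 and 115 CPM in the WD libraries. Its groups overlapped widely, with a log2 fold change of 0.14 ± 0.247 (SE, range -0.027 to 0.27, edgeR unadjusted p = 0.590, adjusted p = 0.928), and the sign turned to -0.027 without CON13, where IL6ST was lowest.

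LIFR, which joins gp130 in the receptors for LIF and CNTF, stood at 44.2, 37.6, 52.4, 65.3 and 33.5 CPM in the control libraries and 50.3, 58.7, 80.0, 116 and 72.9 CPM in the WD libraries. Its lowest WD library was above 3 of the 5 control libraries, and 3 WD libraries lay above all controls. Its mean was 46.6 ± 12.7 CPM in controls and 75.5 ± 25.3 CPM in WD (SD, n = 5 each), a log2 fold change of 0.68 ± 0.230 (SE, range 0.46 to 0.84, edgeR unadjusted p = 0.00889, adjusted p = 0.306). The unadjusted p stayed under 0.05 in each of the 10 fits that left out 1 library.

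CNTFR, the chain that binds ciliary neurotrophic factor and is anchored by a lipid, stood at 31.2, 40.7, 28.8, 27.7 and 32.3 CPM in the control libraries and 66.0, 24.7, 24.0, 27.2 and 24.0 CPM in the WD libraries. WD6 was far above the other 4 WD libraries, and all of these were below every control library. The log2 fold change of 0.0081 ± 0.268 (SE, range -0.36 to 0.10, edgeR unadjusted p = 0.976, adjusted p = 0.995) became -0.36 without WD6 (edgeR, unadjusted p = 0.0508). OSMR, the partner of gp130 for oncostatin M, stood at 9.18, 6.62, 5.85, 7.17 and 3.59 CPM in the control libraries and 6.17, 5.87, 14.7, 8.90 and 13.5 CPM in the WD libraries. Its log2 fold change was 0.55 ± 0.313 (SE, range 0.34 to 0.68, edgeR unadjusted p = 0.0990, adjusted p = 0.636), and the groups overlapped.

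IL27RA, the specific chain of the IL-27 receptor, stood at 5.98, 2.13, 4.47, 4.83 and 10.8 CPM in the control libraries and 5.69, 2.55, 2.61, 2.42 and 3.13 CPM in the WD libraries. In the WD group 4 libraries were between 2.42 and 3.13 CPM and WD6 was higher, and CON13 was the highest control. Its log2 fold change was -0.72 ± 0.444 (SE, range -0.95 to -0.50, edgeR unadjusted p = 0.124, adjusted p = 0.672). The other members were IL6R (23.9 CPM in controls, log2 fold change 0.37 ± 0.288 SE, range 0.14 to 0.55), the binding chain for interleukin-6, IL11RA (17.5 CPM in controls, log2 fold change 0.31 ± 0.250 SE, range 0.087 to 0.48), that for IL-11, and LEPR (4.41 CPM in controls, log2 fold change -0.57 ± 0.613 SE, range -0.94 to -0.066), the related leptin receptor. The value for LEPR was -0.066 without CON13, where it stood at 12 CPM against 1.38 to 3.84 CPM in the other controls.

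The chains of the interferon and IL-10 receptors, which signal through JAK1 and TYK2 or JAK2, all had higher means in WD. All 6 values were above 0, with a median log2 fold change of 0.41, of which 1 had an unadjusted p under 0.05 and none was called. The median was 0.27 without WD15, and without both CON13 and WD6 IL10RB turned to -0.089. Their summed level was 94.5 to 172 CPM in control libraries and 148 to 327 CPM in WD libraries, and the groups overlapped.

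IFNGR1, the chain that binds interferon-gamma, stood at 58.3, 39.7, 64.5, 66.6 and 23.9 CPM in the control libraries and 65.5, 73.1, 111, 79.8 and 132 CPM in the WD libraries. The lowest WD library lay above 4 of the 5 control libraries and only just below CON5. Its mean was 50.6 ± 18.3 CPM in controls and 92.2 ± 28.0 CPM in WD (SD, n = 5 each), and the log2 fold change of 0.82 ± 0.249 (SE, range 0.66 to 0.94, edgeR unadjusted p = 0.00406, adjusted p = 0.223) was the highest of the 40 receptors. The unadjusted p stayed under 0.05 in all 10 fits without 1 library. WD15, with the highest value, was also the library with the most microglial marker RNA, and without it the log2 fold change was 0.66 (edgeR, unadjusted p = 0.0170). The part of these cells in the value was not tested.

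IFNAR1, a chain of the receptor for type I interferons, stood at 65.5, 41.4, 58.9, 59.4 and 34.7 CPM in the control libraries and 39.4, 59.3, 85.0, 71.6 and 109 CPM in the WD libraries. WD15 was the highest WD library and WD6 the lowest, below 4 of the 5 controls, and the log2 fold change was 0.47 ± 0.241 (SE, range 0.28 to 0.61, edgeR unadjusted p = 0.0683, adjusted p = 0.589) and 0.28 without WD15. IL10RA, the binding chain for IL-10, lay between 15.9 and 22.4 CPM in controls and stood at 19.5, 19.6, 27.7, 16.3 and 53.5 CPM in the WD libraries, where WD15 stood alone. In the order of the libraries its controls were 22.4, 19.4, 15.9, 18.9 and 19.1 CPM, and its log2 fold change of 0.51 ± 0.285 (SE, range 0.12 to 0.66, edgeR unadjusted p = 0.0880, adjusted p = 0.620) was 0.12 without WD15. The others were IFNGR2 (9.24 CPM in controls, log2 fold change 0.33 ± 0.327 SE, range 0.065 to 0.50), IFNAR2 (8.56 CPM in controls, log2 fold change 0.35 ± 0.255 SE, range 0.22 to 0.47) and IL10RB (4.02 CPM in controls, log2 fold change 0.21 ± 0.395 SE, range 0.045 to 0.34), the second chains of the interferon-gamma, type I interferon and IL-10 receptors.

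Receptors that use the common gamma chain, which binds JAK3, together with the IL-4 and IL-13 chains, lay on both sides of 0. Of 6 tested, 3 were above and 3 below 0, and none was called. IL4R, shared by the receptors for IL-4 and IL-13, stood at 35.0, 36.4, 27.1, 35.7 and 25.1 CPM in the control libraries and 30.8, 30.1, 34.9, 34.5 and 85.2 CPM in the WD libraries. WD15 alone was above the controls, and the log2 fold change of 0.42 ± 0.268 (SE, range 0.02 to 0.51, edgeR unadjusted p = 0.138, adjusted p = 0.687) was 0.02 without it. IL13RA1, its partner for IL-13, stood at 38.6, 47.1, 92.8, 64.1 and 31.1 CPM in the control libraries and 20.4, 43.9, 54.4, 56.1 and 61.9 CPM in the WD libraries, with a log2 fold change of -0.23 ± 0.287 (SE, range -0.36 to 0.032, edgeR unadjusted p = 0.431, adjusted p = 0.868) that became 0.032 without CON4, the highest library.

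IL2RB, which serves IL-2 and IL-15 on lymphocytes, stood at 3.20, 8.28, 1.15, 1.32 and 19.1 CPM in the control libraries and 2.37, 2.42, 2.30, 0.691 and 1.04 CPM in the WD libraries. CON13 was far above the other controls, and CON4 and CON5 were below 3 of the WD libraries. The log2 fold change was -1.65 ± 0.723 (SE, range -2.0 to -0.98, edgeR unadjusted p = 0.0352, adjusted p = 0.492). Without CON13 it was -0.98 (edgeR, unadjusted p = 0.153), and the control mean fell from 6.62 to 3.49 CPM. The lymphocyte and granulocyte markers were also highest in CON13, at 122 CPM against 23.6 to 63.6 CPM in the other controls, and their part in this value was not tested. So were the summed cytokine ligands, at 114 CPM against 45.1 to 88.7 CPM, whereas the microglial markers were not (617 CPM in CON13). In CON13, 1 read pair is worth 1.20 CPM. The other members tested were IL7R (5.56 CPM in controls, log2 fold change -0.30 ± 0.491 SE, range -0.65 to -0.031), IL21R (4.54 CPM in controls, log2 fold change 0.20 ± 0.577 SE, range -0.48 to 0.72) and IL15RA (2.86 CPM in controls, log2 fold change 0.28 ± 0.542 SE, range 0.011 to 0.52). IL21R turned to -0.48 without WD15.

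The receptor for interleukin-1 pairs IL1R1 with the accessory protein IL1RAP, which the IL-33 receptor also uses, and IL1RAP was the better separated of these chains. IL1RAP stood at 23.5, 17.3, 14.8, 20.9 and 27.5 CPM in the control libraries and 9.49, 11.6, 13.2, 13.9 and 11.5 CPM in the WD libraries. Every WD library was below every control, with 13.9 CPM in the highest WD and 14.8 CPM in the lowest control library. Its mean was 20.8 ± 5.01 CPM in controls and 11.9 ± 1.72 CPM in WD (SD, n = 5 each), a log2 fold change of -0.74 ± 0.216 (SE, range -0.86 to -0.66, edgeR unadjusted p = 0.00319, adjusted p = 0.204), the smallest p of the 40 receptors. This p stayed under 0.05 with any 1 library left out. IL1RAP has a symbol here only through the table chosen by p, so a low p was a condition of its being listed.

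IL1R1, the signalling chain, stood at 41.0, 22.7, 30.8, 57.7 and 27.5 CPM in the control libraries and 40.3, 25.0, 63.8, 36.2 and 75.4 CPM in the WD libraries. Its groups overlapped, with a log2 fold change of 0.39 ± 0.294 (SE, range 0.18 to 0.65, edgeR unadjusted p = 0.197, adjusted p = 0.737), which was 0.18 without WD15 and 0.052 with RNA integrity as a covariate. The decoy receptor IL1R2, the IL-33 receptor IL1RL1 and the IL-18 receptor IL18R1 were not tested. IL-12 receptors were rare. IL12RB2, the chain specific to IL-12, stood at 5.12, 4.73, 2.41, 2.49 and 9.57 CPM in the control libraries and 0, 2.04, 4.46, 0.605 and 0.417 CPM in the WD libraries. It was at 0 in WD6 and highest in CON13, and its log2 fold change was -1.41 ± 0.682 (SE, range -2.33 to -1.16, edgeR unadjusted p = 0.0534, adjusted p = 0.551), the lowest of the range being that without WD8, the highest WD library. Its partner was IL12RB1 (2.44 CPM in controls, log2 fold change -0.10 ± 0.768 SE, range -0.67 to 0.23). Of the IL-17 receptors, the tested IL17RA (14.3 CPM in controls, log2 fold change 0.13 ± 0.310 SE, range -0.12 to 0.32) and IL17RC (6.93 CPM in controls, log2 fold change 0.13 ± 0.330 SE, range -0.083 to 0.44) both lay within 1 SE of 0, and both turned sign with some single library left out, as did IL12RB1.

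Among receptors for hormones and colony-stimulating factors, 3 of 4 tested were below 0, with a median log2 fold change of -0.78, and none was called. PRLR, the prolactin receptor, stood at 2.99, 9.46, 5.97, 6.29 and 19.1 CPM in the control libraries and 1.90, 4.46, 3.53, 2.68 and 1.88 CPM in the WD libraries. CON13 was the highest and CON2 lay among the WD libraries, and each of the other controls was above all WD libraries. Its mean was 8.77 ± 6.23 CPM in controls and 2.89 ± 1.11 CPM in WD (SD, n = 5 each), a log2 fold change of -1.38 ± 0.446 (SE, range -1.65 to -1.05, edgeR unadjusted p = 0.00651, adjusted p = 0.266). The unadjusted p stayed under 0.05 in all 10 fits without 1 library. Without CON13 the log2 fold change was -1.05 (edgeR, unadjusted p = 0.0186), on a control mean of 6.18 CPM.

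CSF3R, the receptor for granulocyte colony-stimulating factor, stood at 6.40, 8.75, 1.03, 3.51 and 10.8 CPM in the control libraries and 2.37, 1.79, 3.84, 1.38 and 3.13 CPM in the WD libraries. The control libraries spread over a wider range than the WD libraries and CON4 was below all of these. Its log2 fold change was -1.16 ± 0.548 (SE, range -1.50 to -0.93, edgeR unadjusted p = 0.0481, adjusted p = 0.531), and it was -0.96 without CON13 (edgeR, unadjusted p = 0.0996). GHR, the growth hormone receptor, stood at 19.9, 23.9, 47.3, 30.7 and 25.1 CPM in the control libraries and 14.2, 29.8, 22.7, 28.4 and 16.7 CPM in the WD libraries. Its groups overlapped, with a log2 fold change of -0.39 ± 0.258 (SE, range -0.54 to -0.15, edgeR unadjusted p = 0.148, adjusted p = 0.694), which was -0.15 without CON4, the highest control, and -0.19 with RNA integrity as a covariate. With depth group as a covariate it was -0.53 (edgeR, unadjusted p = 0.00794, adjusted p = 0.165). The last of the group was CSF2RB (12 CPM in controls, log2 fold change 0.35 ± 0.315 SE, range 0.10 to 0.51), the beta chain common to the receptors for GM-CSF, IL-3 and IL-5.

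**Figure D3:**
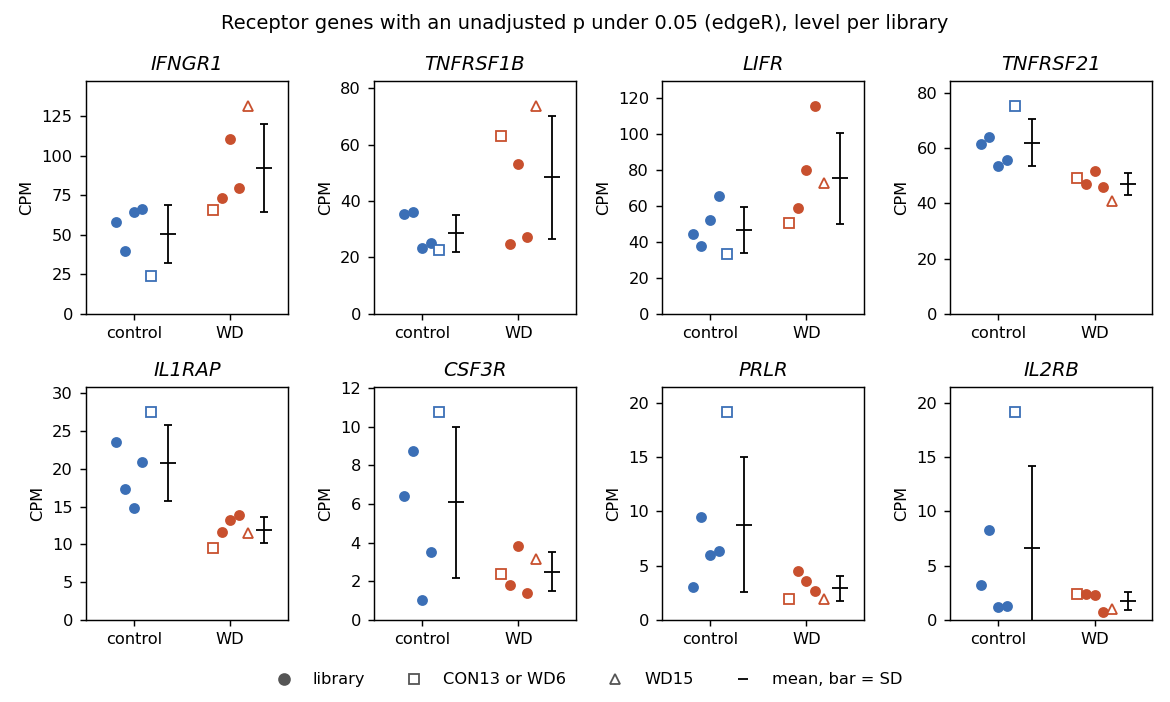
CPM per library (vertical axis) of the 8 receptor genes with an unadjusted p under 0.05 in edgeR, for control (blue) and WD (red) libraries, with the mean and SD beside them (a bar is cut at 0 where the SD exceeds the mean). All WD points lie below all control points for TNFRSF21 and IL1RAP, and CON13 is the highest control for all 5 receptors with the lower mean in WD.

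TNF family receptors with a death domain can recruit caspases, and none of the 4 tested was called. TNFRSF21, known as death receptor 6 and expressed by neurones and oligodendrocyte precursors, stood at 61.7, 64.1, 53.5, 55.8 and 75.3 CPM in the control libraries and 49.4, 47.1, 51.6, 46.0 and 40.8 CPM in the WD libraries. All WD libraries were below all controls, by a margin of 51.6 against 53.5 CPM. Its mean was 62.1 ± 8.57 CPM in controls and 47.0 ± 4.06 CPM in WD (SD, n = 5 each), a log2 fold change of -0.39 ± 0.160 (SE, range -0.45 to -0.33, edgeR unadjusted p = 0.0267, adjusted p = 0.461). The unadjusted p was under 0.05 in 8 of 10 fits without 1 library, and was 0.0509 without CON13 and 0.0639 without WD15 (edgeR). The markers of the oligodendrocyte lineage summed to 155 to 377 CPM in control libraries and 135 to 265 CPM in WD libraries. Those of magnocellular neurones summed to 836 to 1143 CPM in control libraries and 1751 to 2757 CPM in WD libraries. The part of these cells in the value of TNFRSF21 was not tested. The others tested were TNFRSF1A (15.1 CPM in controls, log2 fold change 0.43 ± 0.240 SE, range 0.20 to 0.52), the main death-domain receptor for TNF, FAS (6.47 CPM in controls, log2 fold change 0.44 ± 0.385 SE, range 0.26 to 0.66) and TNFRSF25 (6.14 CPM in controls, log2 fold change -0.15 ± 0.413 SE, range -0.41 to 0.06).

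Of the TNF family receptors without a death domain, 4 of 6 tested were above 0 and none was called. TNFRSF1B, the TNF receptor of microglia, endothelium and leukocytes, stood at 35.4, 36.0, 23.4, 25.0 and 22.7 CPM in the control libraries and 63.1, 24.9, 53.2, 27.1 and 73.8 CPM in the WD libraries. WD6, WD8 and WD15 were above all controls, and WD7 and WD9 lay within them. Its mean was 28.5 ± 6.62 CPM in controls and 48.4 ± 21.7 CPM in WD (SD, n = 5 each), a log2 fold change of 0.73 ± 0.283 (SE, range 0.52 to 0.89, edgeR unadjusted p = 0.0191, adjusted p = 0.413). The summed microglial markers divided the WD libraries in the same way, at 1460.2, 1453 and 2962 CPM in WD6, WD8 and WD15 and 892 and 877 CPM in WD7 and WD9. Their part in this value was not tested. The log2 fold change was 0.52 without WD15 (edgeR, unadjusted p = 0.0774) and 0.33 with RNA integrity as a covariate (edgeR, unadjusted p = 0.13).

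TNFRSF8, also called CD30, stood at 2.35, 4.97, 0.344, 2.05 and 5.98 CPM in the control libraries and 3.32, 2.17, 2.46, 0.346 and 0.625 CPM in the WD libraries, and its groups overlapped, with a log2 fold change of -0.71 ± 0.729 (SE, range -1.10 to -0.35, edgeR unadjusted p = 0.342, adjusted p = 0.829). TNFRSF11B, the secreted decoy receptor osteoprotegerin, stood at 3.63, 4.97, 1.84, 2.49 and 2.39 CPM in the control libraries and 0, 4.59, 4.30, 5.62 and 6.46 CPM in the WD libraries. It was at 0 in WD6, which at that depth allows up to 1.42 CPM, and at or above 4.30 CPM in the other WD libraries, with a log2 fold change of 0.51 ± 0.537 (SE, range 0.32 to 0.76, edgeR unadjusted p = 0.355, adjusted p = 0.837). The rest were TNFRSF11A (5.57 CPM in controls, log2 fold change 0.38 ± 0.408 SE, range 0.082 to 0.63), the receptor RANK, TNFRSF19 (3.53 CPM in controls, log2 fold change -0.29 ± 0.539 SE, range -0.50 to 0.38), a receptor of the developing nervous system, and LTBR (11.5 CPM in controls, log2 fold change 0.063 ± 0.396 SE, range -0.21 to 0.27), the lymphotoxin beta receptor. TNFRSF19 and LTBR did not keep their direction with every library left out in turn.

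Split by level, as a description without a test, the values of the better covered receptors rested in part on WD15. Of the 20 receptors tested with a mean above 10 CPM over all 10 libraries, 16 were above 0, with a median log2 fold change of 0.34, and of the 20 tested at lower levels 9 were above 0, with a median of -0.12. For the better covered 20 the median was 0.13 without WD15, with 14 above 0, and 0.13 with RNA integrity as a covariate, with 13 above 0. Without CON13 the medians were 0.33 and 0.0063, and 5 of the 40 receptors kept an unadjusted p under 0.05 (IFNGR1, LIFR, TNFRSF1B, IL1RAP and PRLR), against 7.83% of all genes tested in that fit. WD15 was the highest WD library for 19 of the 52 receptors and for 12 of the 19 with a control mean above 10 CPM, and without it 4 receptors kept such a p (IFNGR1, LIFR, IL1RAP and PRLR), against 6.39% of all genes tested in that fit. Other fits gave more such receptors, with 12 without WD6 (13.4% of all genes), 10 without CON5 (8.01%) and 9 with depth group as a covariate (12.6%). No receptor was called in any of these fits.

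**Figure D4:**
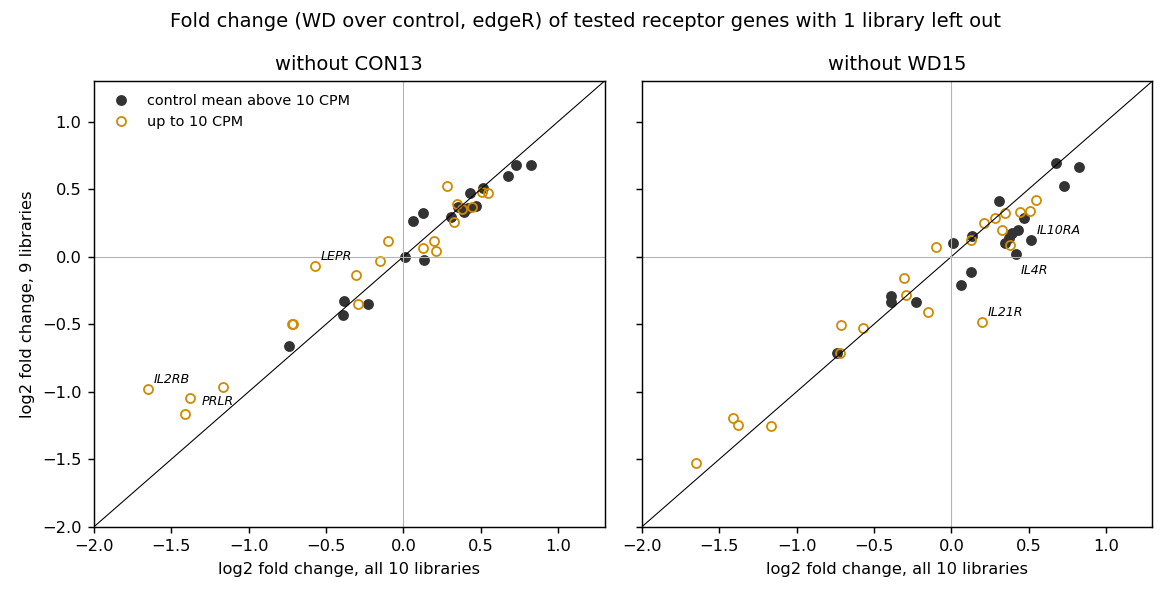
Log2 fold change (WD over control, edgeR) of the 40 tested receptor genes with all 10 libraries (horizontal axis) against the fit without CON13 (left) or without WD15 (right), with the line of equal values and filled points for control means above 10 CPM. Without CON13 the value of IL2RB goes from -1.65 to -0.98 and that of PRLR from -1.38 to -1.05, and without WD15 IL10RA and IL4R fall to 0.12 and 0.02.

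The remaining 12 receptors had between 34 and 102 read pairs over all 10 libraries and were not kept for the test. Their total counts were 102 for IL17RB, 86 for CD40, 79 for IL1RL1, 76 for NGFR, 74 for EDAR, 66 for IL2RG, 57 for IL2RA, 54 for TNFRSF4, 46 for IL18R1, 43 for IL1R2, 39 for TNFRSF9 and 34 for EPOR. They include CD40 and the common gamma chain IL2RG, known from microglia and lymphocytes, NGFR, the neurotrophin receptor of the family, EDAR, the ectodysplasin receptor, and EPOR, the erythropoietin receptor. Of the 12, 8 had a higher mean in controls, and 6 without CON13.

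TNFRSF9, a costimulatory receptor of activated T cells, had 12, 8, 1, 5 and 8 read pairs in the control and 0, 1, 1, 1 and 2 in the WD libraries. CON4 lay within the WD libraries, and CON2, CON3, CON5 and CON13 had more pairs than each of them. After scaling for library size, the ratio of the summed counts of WD over control was 0.113 (95% exact interval 0.0346 to 0.291, counting error only). DESeq2's Wald test gave a log2 fold change of -3.95 and an adjusted p of 0.0330, on a threshold that 1.27% of the genes it tested passed. Without CON13, DESeq2 gave a log2 fold change of -2.98 with an unadjusted p of 0.00866, and its filter left the gene without an adjusted p, and edgeR without a filter gave -3.71 with an adjusted p of 0.265. The call thus holds only for DESeq2 with all 10 libraries among these fits.

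Most of the ligands of these receptors had few read pairs. Of 51 cytokine, TNF family and neurotrophin ligands with an ID, 11 were tested and none was called, and the other 40 had between 12 and 102 read pairs in all. TNF had 24 control and 24 WD read pairs, and LIF had 24 control and 34 WD read pairs. CNTF had 7 control and 35 WD read pairs, IL6 16 control and 23 WD read pairs, OSM 19 control and 13 WD read pairs and IL27 24 control and 26 WD read pairs. PRL, the ligand of PRLR, had 30 control and 12 WD read pairs, GH1 16 control and 13 WD read pairs and CSF3 9 control and 12 WD read pairs. IL2 had 14 control and 8 WD read pairs, IL15 22 control and 18 WD read pairs, IL4 18 control and 25 WD read pairs, IL13 35 control and 48 WD read pairs, IL10 11 control and 25 WD read pairs, IL12A 12 control and 26 WD read pairs, IL12B 22 control and 6 WD read pairs and TNFSF11, which osteoprotegerin binds, 16 control and 6 WD read pairs. None of these ligands passed the filter of the test.

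Interleukin-1 was better covered. IL1B averaged 6.76 ± 2.36 CPM in controls and 7.55 ± 3.18 CPM in WD (SD, n = 5 each), a log2 fold change of 0.12 ± 0.324 (SE, range -0.10 to 0.27, edgeR unadjusted p = 0.715, adjusted p = 0.949), its antagonist IL1RN had one of -0.49 ± 0.602 (SE, range -0.94 to -0.16, edgeR unadjusted p = 0.428, adjusted p = 0.866), and IL1A was not tested, with 52 control and 50 WD read pairs. TNFSF8, the ligand of TNFRSF8, had a log2 fold change of -0.28 ± 0.758 (SE, range -0.71 to 0.38, edgeR unadjusted p = 0.719, adjusted p = 0.949). TNFSF10, the death ligand TRAIL that osteoprotegerin also binds, averaged 10.2 ± 3.39 CPM in controls and 18.2 ± 6.91 CPM in WD (SD, n = 5 each), a log2 fold change of 0.76 ± 0.281 (SE, range 0.58 to 0.90, edgeR unadjusted p = 0.0145, adjusted p = 0.368). Of the cytokine ligands 5 were tested, with a median log2 fold change of 0.14, and of the TNF family and neurotrophin ligands 6, with a median of -0.22 that turned to 0.12 without CON13. In each of these lists 1 gene had an unadjusted p under 0.05 and was higher in WD, IL18 and TNFSF10.

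The kinases and factors downstream of the receptors were present throughout, at summed levels of 662 to 793 CPM in control libraries and 695 to 928 CPM in WD libraries for JAK, STAT and phosphatase genes. Of 13 tested, 11 were above 0, with a median log2 fold change of 0.17, and none was called. JAK3, the kinase of the common gamma chain, averaged 8.10 ± 2.67 CPM in controls and 19.2 ± 12.5 CPM in WD (SD, n = 5 each), a log2 fold change of 1.28 ± 0.379 (SE, range 0.80 to 1.46, edgeR unadjusted p = 0.00346, adjusted p = 0.214), and PTPN6, a phosphatase of blood cells and microglia, had one of 0.96 ± 0.333 (SE, range 0.56 to 1.11, edgeR unadjusted p = 0.0103, adjusted p = 0.329). STAT3, the main target of gp130, had one of 0.17 ± 0.163 (SE, range 0.10 to 0.25, edgeR unadjusted p = 0.309, adjusted p = 0.813). STAT5A and STAT5B, on which the prolactin and growth hormone receptors act, had log2 fold changes of -0.018 ± 0.196 (SE, range -0.087 to 0.071) and -0.013 ± 0.154 (SE, range -0.093 to 0.015).

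Of the 11 NF-kB genes tested, 10 were above 0 with a median of 0.24, and MAP3K14, a kinase of the pathway that LTBR and TNFRSF11A use, had the only unadjusted p under 0.05, with a log2 fold change of 0.78 ± 0.358 (SE, range 0.35 to 0.96, edgeR unadjusted p = 0.0440, adjusted p = 0.523). Of the 13 adaptors, kinases and caspases tested, 10 were above 0 with a median of 0.30. TRAF3, an adaptor of the TNF receptors, stood at 38.4, 31.2, 35.3, 38.5 and 25.1 CPM in the control libraries and 46.5, 42.6, 43.5, 42.4 and 50.2 CPM in the WD libraries. All its WD libraries lay above all controls, as in 1.34% of all genes, with a log2 fold change of 0.39 ± 0.167 (SE, range 0.32 to 0.44, edgeR unadjusted p = 0.0325, adjusted p = 0.478). RIPK1, which TNF receptors recruit, had a log2 fold change of 0.66 ± 0.235 (SE, range 0.54 to 0.75, edgeR unadjusted p = 0.0123, adjusted p = 0.349), RIPK3, its partner in necroptosis, one of -1.07 ± 0.458 (SE, range -1.36 to -0.85, edgeR unadjusted p = 0.0321, adjusted p = 0.478), and IRAK4, the first kinase of the interleukin-1 receptor, one of 0.81 ± 0.318 (SE, range 0.64 to 0.91, edgeR unadjusted p = 0.0211, adjusted p = 0.425). Without CON13 the unadjusted p of RIPK3 was 0.0604 (edgeR), which left no lower gene in this list under 0.05.

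Of 27 further receptors for cytokines or TNF family ligands 9 were tested, 4 above 0, and CSF1R, a receptor tyrosine kinase that binds CSF1 and also one of the microglial markers, was 0.62 ± 0.260 (SE, range 0.34 to 0.79, edgeR unadjusted p = 0.0277, adjusted p = 0.468) on the log2 scale. CRLF3, an orphan receptor of the family, was -0.59 ± 0.230 (SE, range -0.69 to -0.41, edgeR unadjusted p = 0.0203, adjusted p = 0.419). Over all these lists together, 11 of 57 genes tested had an unadjusted p under 0.05 and were higher in WD, and 2 were lower, against 4.91% and 4.41% of all genes. Of the genes tested in the class lists the counts were 8 and 1 of 52, against 6.01% and 5.32% of the genes listed there. Of the 10 fits without 1 library, a p under 0.05 was kept in 10 for JAK3 and RIPK1, 9 for PTPN6, TNFSF10 and IL18, 8 for IRAK4, 7 for CRLF3, 5 for RIPK3, 4 for TRAF3, CSF1R and IRAK2, 3 for MAP3K14 and 2 for PIAS1. Over the 57 genes the median was 0.22, and 0.14 without WD15 and 0.10 with RNA integrity as a covariate. CRLF3, PIAS1, PTPN6, TRAF1 and TRAF3, like IL1RAP, were named only in the table chosen by p.

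Markers of other cell types differed between the groups as well. All 19 microglial and macrophage markers had a log2 fold change above 0, with a median of 0.94, 18 of them with an unadjusted p under 0.05, against 4.91% of all genes, and C1QA was called, at 1.63 ± 0.322 (SE, range 1.22 to 1.80, edgeR unadjusted p = 8.69e-05, adjusted p = 0.0232), against 0.499% of all genes. DESeq2 called 4 of these markers, against 1.27% of the genes it tested. When depth group was a covariate, the edgeR fit called 7 of them, against 224 of 14432 genes. Without WD15 the median log2 fold change of the 19 markers was 0.59. Of these markers, 12 are named only in the table chosen by p, and of the other 7, 6 had such a p, against 6.01% of the genes in the class lists. None of the 19 was at 0 in any library. Among the lymphocyte and granulocyte markers 7 were tested, 1 of them above 0 and none with a low p, and 8 of the 14 were at 0 in some library.

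With an unadjusted p under 0.05, the counts of the other lists were endothelium (3 higher and 0 lower of 9 tested, median 0.19), mural cells and fibroblasts (0 higher and 5 lower of 8 tested, median -0.90), astrocytes (3 higher and 0 lower of 4 tested, median 0.52), oligodendrocyte lineage (0 higher and 1 lower of 6 tested, median -0.25) and ependyma (0 higher and 0 lower of 2 tested, median 0.23), against 4.91% higher and 4.41% lower of all genes. These counts are partly set by how the genes were named, since all 4 astrocyte and 3 of the 8 mural and fibroblast markers come only from the table chosen by p, as does 1 each of the endothelial, oligodendrocyte and magnocellular markers. Of the markers in the class lists, 2 of 5 mural and fibroblast genes had a low p, with a median of -0.17, and 2 of 8 endothelial and 0 of 5 oligodendrocyte genes. COL1A1, a collagen of fibroblasts, was called, with a log2 fold change of -1.04 ± 0.207 (SE, range -1.17 to -0.95, edgeR unadjusted p = 9.59e-05, adjusted p = 0.0239). Of the magnocellular markers 3 of 7 were called, PDYN (1.93), SCG2 (1.48) and PCSK1 (2.02 on the log2 scale), all higher in WD, against 0.499% of all genes. The called genes were known to be higher in WD in these data before the list was drawn up. Their share was thus set in advance and says nothing about magnocellular neurones as a cell type. Of these 7, 4 were above and 3 below 0, and 1 of the latter, OTP, had an unadjusted p under 0.05, at -0.58 ± 0.239 (SE, range -0.78 to -0.45, edgeR unadjusted p = 0.0255, adjusted p = 0.454). The haemoglobin gene HBB, a marker of blood, was at most 8.37 CPM in a control and 1.84 CPM in a WD library. The part of these cells in the levels of the receptors was not tested. The plot of summed levels sets receptor families beside the microglial and the lymphocyte markers.

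**Figure D5:**
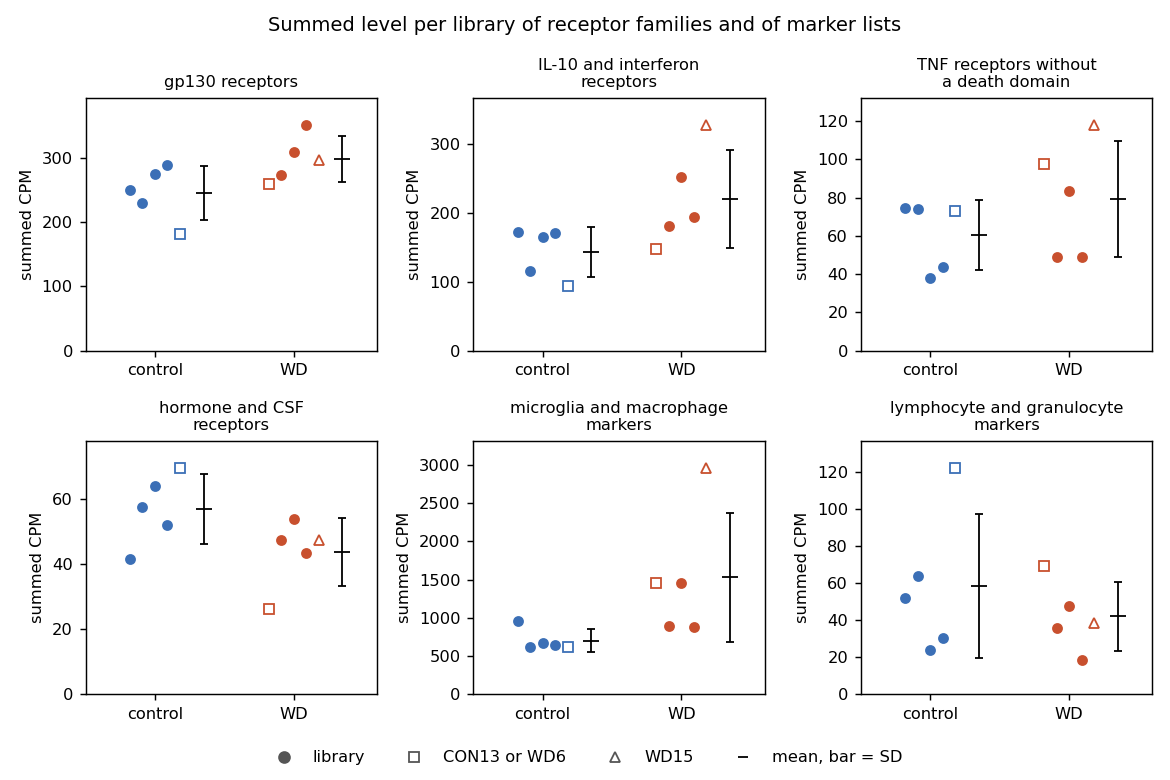
Summed CPM per library (vertical axes) of 4 receptor families and of 2 marker lists, for control (blue) and WD (red) libraries, with mean and SD. WD15 is the highest library both for the IL-10 and interferon receptors (327 CPM) and for the microglial markers (2962 CPM), and CON13 for the lymphocyte and granulocyte markers (122 CPM).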

How the data were processed

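Libraries were made from total RNA of the rostral SON, 5 from control and 5 from WD animals (Illumina, paired ends). After trimming (BBDuk) and alignment by STAR to the Camdro2 assembly, the authors counted read pairs per gene with featureCounts, and they deposited these counts, which are whole numbers without normalization, per library and without pooling. Annotation release, strand setting and the treatment of pairs shared by genes are not given in the sources used here, so overlapping genes are uncertain. A deposited table of normalized values was not used.

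Groups follow the labels. Where nothing else is said, p-values are from edgeR's quasi-likelihood F test (TMM, filterByExpr by group, robust fit) on all 10 libraries without covariates, adjusted by Benjamini-Hochberg over 14432 genes. The SE is the log2 fold change divided by the square root of F, and the biological coefficient of variation was 0.285. DESeq2's Wald test, other normalizations and filters, a fit that is not robust, RNA integrity, short fragments or depth group (the shallower CON2, CON3, CON13, WD6 and WD15 against the rest) as covariates, and leaving out libraries were alternatives, and DESeq2 without CON13 was added after the data were seen. Software was edgeR 4.0.16, limma 3.58.1 and DESeq2 1.42.0 under R 4.3.3, with pandas 2.3.3, numpy 2.4.6, matplotlib 3.10.9 and scipy 1.17.1 under Python 3.11.15. On simulated counts for this comparison with 14432 genes, the edgeR test called 51 of 100 genes changed by 1 and 94 of 100 changed by 2 on the log2 scale, and 11 of 14135 unchanged genes. The simulation drew genes of all levels and gave each the same coefficient of 0.285, so these shares are not those of the receptors. With counting error included, receptors at up to 10 CPM had a median coefficient of variation of 71.0% over the control libraries.

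The receptors, the lists of ligands, signalling genes, further receptors and cell markers, and the tests were chosen with earlier results of these data known. Symbols for 4316 of the 22444 IDs come from the study's supplementary gene tables, of which the results table is held only in part. Listed only in that part, through their low p, are 1480 IDs, and some of the IDs listed in these tables have no symbol. Values in every library are given for receptors that were called, whose groups do not overlap, with an unadjusted p under 0.05 or among the 10 highest in controls, and for the 3 largest rises and falls of the rest. Other receptors are given by level and fold change, or by counts. Of the other lists, called genes, genes whose groups do not overlap at an unadjusted p under 0.05, and ligands or signalling partners of these receptors are given, and further ones (IL18, JAK3, RIPK1, IRAK2, IRAK4, PIAS1, TRAF1, MAP3K14, RIPK3, CSF1R, CRLF3, PTPN6) were chosen after their values were seen. Libraries of one group come from different animals.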

Additional observations from a re-analysis of the deposited data

Results flagged for a closer look

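Among 80 groups of 5 libraries (40 receptors tested in each condition), 11 had 1 library farther from the others than Dixon's 95% limit allows on the log2 scale (CPM plus 0.5), and chance alone gives about 1 in 20 groups. Of the 11, 7 are values of WD6. CNTFR was 66.0 CPM in WD6 and 24.0 to 27.2 CPM in the other WD libraries. IL4R was 85.2 CPM in WD15 and 30.1 to 34.9 CPM in the others.

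FAS was 0.949 CPM in WD6 (2 read pairs) against 8.29 to 12.9 CPM in the other WD libraries. IFNAR2 was 5.69 CPM in WD6 (12 read pairs) against 10.5 to 13.2 CPM in the other WD libraries. IL10RB was at 0 in CON13 (0 read pairs) against 4.26 to 5.71 CPM in the other control libraries. IL10RB was 7.59 CPM in WD6 (16 read pairs) against 4.59 to 5.18 CPM in the other WD libraries. IL11RA was 25.5 CPM in CON3 (108 read pairs) against 14.5 to 16.7 CPM in the other control libraries. IL27RA was 5.69 CPM in WD6 (12 read pairs) against 2.42 to 3.13 CPM in the other WD libraries. TNFRSF11B was at 0 in WD6 (0 read pairs) against 4.30 to 6.46 CPM in the other WD libraries. TNFRSF19 was 8.75 CPM in CON2 (41 read pairs) against 1.61 to 2.52 CPM in the other control libraries. TNFRSF19 was 0.475 CPM in WD6 (1 read pair) against 2.92 to 3.99 CPM in the other WD libraries.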

How the results depend on the processing

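No receptor was called in any of the 21 alternatives except DESeq2's Wald test, which called 1 (TNFRSF9), and none was called by DESeq2 without CON13. The number of genes called, 72 with all libraries, was 209 with DESeq2, 167 with DESeq2 without CON13, 10 with library totals only and 224 with depth group as a covariate, and between 40 and 102 with 1 library left out. Depth group as a covariate called 2 genes of the pathway lists (CRLF3 and JAK3), and the smallest adjusted p of a receptor was then 0.0645 (edgeR, TNFRSF1B). With library totals only, the median log2 fold change of all genes was 0.16, so every value there is read against this shift. Of the 21 receptors given by library, 18 kept their direction with any 1 library left out. CNTFR, near 0, turned to -0.017 with library totals only, -0.024 with RNA integrity as a covariate and -0.37 without both CON13 and WD6, and ranged from -0.36 to 0.10 with 1 library left out. With RNA integrity as a covariate, TNFRSF1B was 0.33, OSMR 0.30, IL10RA 0.18 and IL4R 0.16. The range with 1 library left out was -0.027 to 0.27 for IL6ST and -0.36 to 0.032 for IL13RA1, and the cause was not tested. Of the 10 receptors highest in controls, between 9 and 10 were the same with any control library left out. Depth limits receptors under about 10 CPM, mostly through CON13 and WD6. No paired analysis was possible because the control and WD libraries share no replicate number.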

Other observations

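BDNF, a neurotrophin that binds NGFR among other receptors, was too rare for the edgeR test. It was picked after its values were seen. It had 4, 0, 0, 5 and 0 read pairs in the control libraries and 2, 14, 9, 25 and 15 in the WD libraries. After scaling for library size, the ratio of summed counts of WD over control was 5.56 (95% exact interval 2.76 to 12.7, counting error only). NGFR itself had 54 control and 22 WD read pairs, and its log2 fold change was -1.55 ± 0.801 (SE) in edgeR without a filter, with an adjusted p of 0.644. IL18, a cytokine of the interleukin-1 family, averaged 2.91 ± 1.29 CPM in controls and 6.03 ± 3.77 CPM in WD (SD, n = 5 each), a log2 fold change of 1.18 ± 0.449 (SE, range 0.75 to 1.36, edgeR unadjusted p = 0.0173, adjusted p = 0.400), while its receptor IL18R1 had 25 control and 21 WD read pairs in all and was not tested.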
